A study of Mus musculus with 8 samples.

Results

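Cholesterol and fatty acid synthesis genes were followed in follicular regulatory T (TFR) cells of mouse spleen. The set of 31 genes was fixed by name: 16 enzymes of cholesterol synthesis, 5 regulators and sterol sensors, 8 enzymes of fatty acid synthesis and desaturation, and 2 sterol efflux pumps. All 31 had a row among the 24421 genes of the deposited count table, and all 31 passed the filter on low counts, which kept 12363 genes. Poly(A) RNA was sequenced from 4 libraries labelled Wildtype (WT) and 4 labelled Blimp1-flox Foxp3-cre, called Blimp1-flox below. Both groups of mice were given peanut plus cholera toxin by mouth in 2 challenges, and cells were taken at day 36 after challenge. Foxp3-cre drives recombination in Foxp3-expressing cells, so the loss of Blimp1 is not limited to TFR cells. CD4+ cells were enriched on a kit and then sorted for Foxp3-YFP, CXCR5 and PD1. It is not stated in the labels how many animals gave a library, whether the WT mice carried the Cre, or whether both alleles were floxed, so p-values here reflect only how far these libraries vary, and some of that variation may be technical.

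Sterol synthesis starts from acetyl-CoA and runs through mevalonate, isoprenoid diphosphates and squalene to lanosterol and cholesterol. When the endoplasmic reticulum is short of sterol, the escort protein SCAP carries the precursors of SREBP1 (encoded by Srebf1) and SREBP2 (Srebf2) to the Golgi, where they are cleaved to active transcription factors. INSIG proteins hold SCAP back when sterol is plentiful, and liver X receptors then induce the efflux pumps. Lymphocytes raise both synthesis programmes when they grow and divide, and in regulatory T cells mevalonate products are known to matter for suppressive function. Blimp1, encoded by Prdm1, is a transcriptional repressor of effector lymphocytes.

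Library totals ran from 16425538 to 27595939 counts. Levels are given as CPM, the usual unit of counts scaled for library depth, here with TMM scaling, and as CPM per kilobase of exon where genes are compared with each other. Prdm1 held 39.1, 31.8, 65.1 and 71.0 CPM in WT 1 to WT 4 and 13.4, 7.53, 9.60 and 16.6 CPM in Blimp1-flox 1 to 4, so each library lay on the side of its label (log2 fold change -2.14 ± 0.31, SE; edgeR adjusted p = 0.0203). The floxed exons are not named in the labels. The T cell and gate genes, of which 1 of 14 was called (Il2ra, lower in Blimp1-flox), summed to 10144 to 12130 CPM in WT, against 10296 to 11881 CPM in Blimp1-flox. Lck and Cd3e were the most abundant of these genes. The sort genes were also looked up. Foxp3 held 84.4, 105, 86.0 and 72.5 CPM in WT, against 55.7, 67.5, 75.5 and 65.0 CPM in Blimp1-flox. Its log2 fold change was -0.40 ± 0.13 (SE), which did not pass (edgeR adjusted p = 0.176). Cxcr5 held 391 to 506 CPM in WT, against 475 to 568 CPM in Blimp1-flox. The PD1 gene Pdcd1 held 773.5 to 1180 CPM in WT, against 776 to 1477 CPM in Blimp1-flox. WT 4 held the most B cell RNA, with 122 CPM of the B cell receptor chain gene Cd79a against 8.73 to 28.1 CPM in the other WT libraries and 2.51 to 4.57 CPM in Blimp1-flox. On principal components of log2 CPM, WT 4 stood apart on the first and Blimp1-flox 3 on the second.

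No gene of the set passed the test between genotypes. With edgeR's quasi-likelihood test and an adjusted p under 0.05 over all 12363 genes, 0 of 31 were called, where 0.501% of all tested genes were called. At an unadjusted p under 0.05 the members Scd1, Srebf1, Fdps and Scd2 passed, 4 of 31, against 16.2% of all tested genes. DESeq2 called 1 of 31 members, Scd1, where it called 453 genes, 3.66% of all tested genes. With limma-voom and quality weights 0 members were called, where 494 genes were, 4% of all tested genes. Groups did not overlap for 1 member, Srebf1, against 8.47% of all tested genes. The median log2 fold change of the members, Blimp1-flox relative to WT, was 0.0799 with 23 positive and 8 negative values, beside a median of 0.00119 and 50.1% positive values over all tested genes. The count and median depended on single libraries: leaving out 1 gave 18 to 23 positive values and medians from 0.0543 without Blimp1-flox 3, where 13 were negative, to 0.127 without WT 4 and 0.135 without Blimp1-flox 1. Without WT 4 and Blimp1-flox 3 the median was 0.0442, with 19 positive and 12 negative values. With a B cell score in the fit it was 0.0195, with 16 positive and 15 negative values. That score had 65.2% of its variance in common with genotype, and 0 of all tested genes were called with it.

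The width of the intervals sets what these libraries could have shown. For 20 of 31 members the 95% interval of the fold change lay within a 1.5-fold change in either direction, and for 27 of 31 it lay within a 2-fold change. The 4 members with wider intervals were Idi1, Hsd17b7, Scd1 and Fads2, all at low levels.

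**Figure D1:**
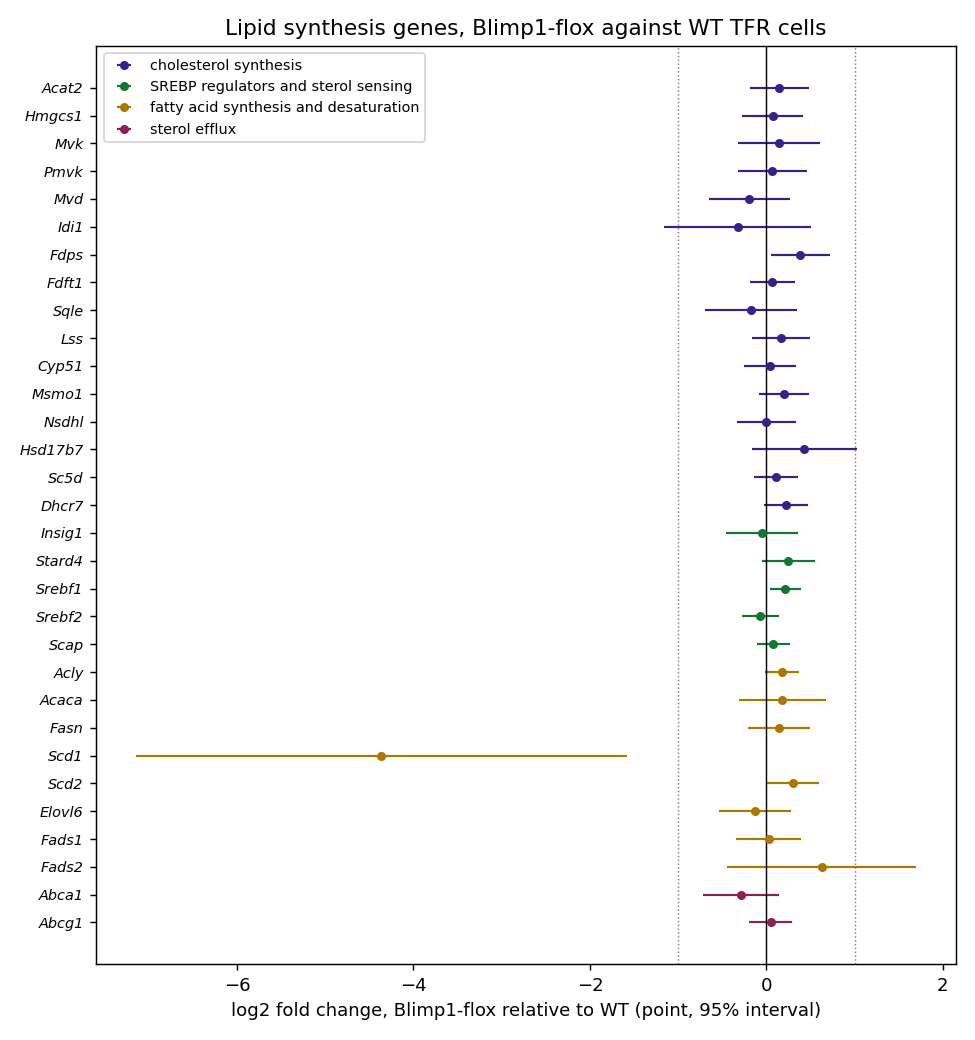
Log2 fold change of each of the 31 genes in Blimp1-flox relative to WT (horizontal axis), with points for the edgeR estimate and bars for its 95% interval. Genes are ordered by role, and dotted lines mark a 2-fold change in either direction. The interval of Scd1 runs from -7.15 to -1.58 and every other estimate lies between -0.33 and 0.63.

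The genes of the set differed widely in level. Acly, which encodes the ATP citrate lyase that supplies cytosolic acetyl-CoA, was the highest per length, with 106 ± 8.23 CPM per kilobase in WT and 119 ± 7.19 in Blimp1-flox (SD, n = 4). Srebf2 and Srebf1 followed with means over 8 libraries of 44.9 and 35.7 CPM per kilobase, then Fdps with 30.6 and Scd2 with 29.2. The ranges of Fdps, Scd2 and the SREBP escort gene Scap, at 28.5, overlapped between libraries. The rest of the sterol enzymes ran from 24.8 CPM per kilobase for Sc5d, the desaturase of a late sterol step, down to 0.937 for Idi1, the isopentenyl diphosphate isomerase. At the foot of the order stood Abca1 (0.930), Scd1 (0.856), Acaca (0.8288) and Fads2 (0.549). For Acaca, the acetyl-CoA carboxylase that commits carbon to fatty acids, 64.3% of the longest transcript matched the pseudogene Gm5182 at 98% identity or more over at least 75 bases. For Idi1 such stretches of other genes covered 33.3%, so the counts of both are uncertain. Matched stretches covered 15.6% to 19.8% of Acat2, Fdps, Hmgcs1 and Scap, whose counts may be uncertain too. These are shares of transcript length and do not say what share of the counts is affected.

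**Figure D2:**
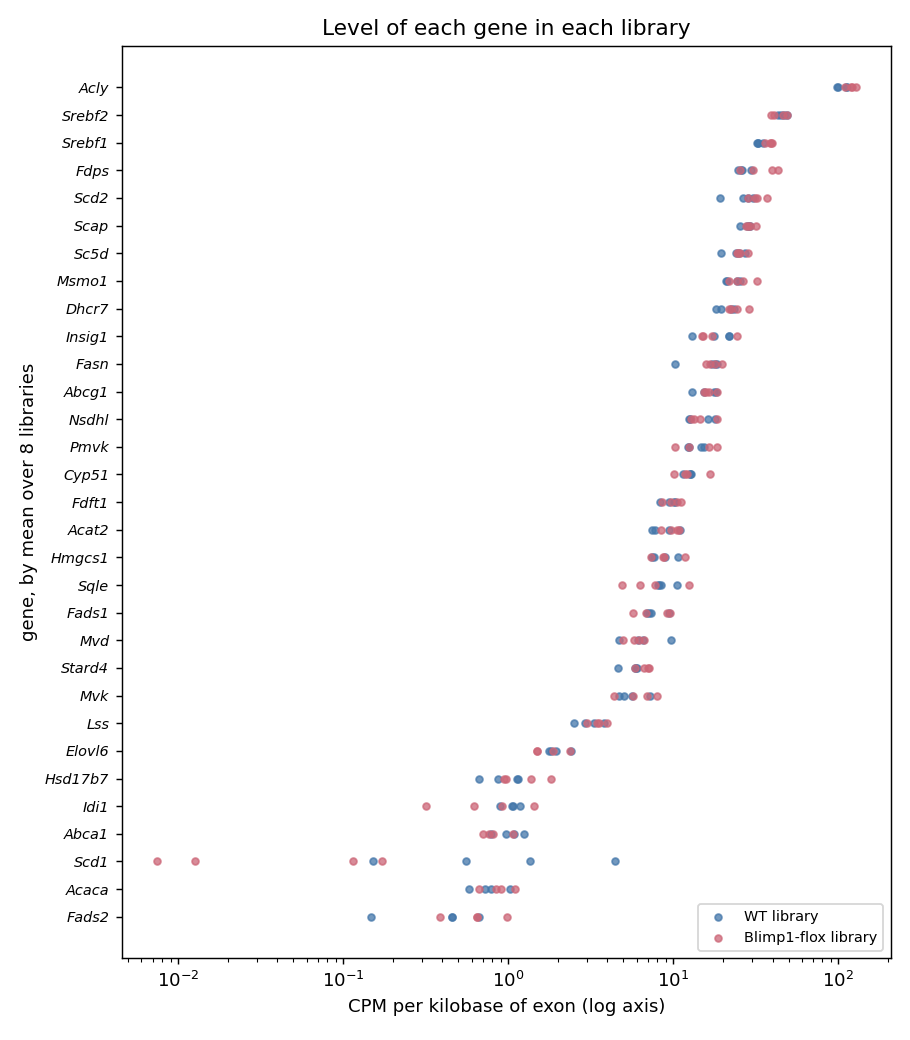
CPM per kilobase of exon (log axis) of each gene in each of the 8 libraries, with WT in blue and Blimp1-flox in red, ordered by the mean over all libraries. Acly stands above all other genes in every library, and Scd1 is spread over the widest range.

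Enzymes of the first steps, from acetyl-CoA to isoprenoid diphosphates, showed no called difference. Hmgcs1, the HMG-CoA synthase, held 26.6, 32.0, 27.6 and 38.5 CPM in WT, against 26.3, 31.1, 41.9 and 31.3 CPM in Blimp1-flox. The groups of Hmgcs1 overlapped almost fully, and its log2 fold change was 0.07 ± 0.16 (SE; edgeR adjusted p = 0.865). Fdps, the farnesyl diphosphate synthase at the branch to sterols and prenylated proteins, held 43.3, 37.6, 38.2 and 36.0 CPM in WT, against 63.4, 37.0, 57.7 and 44.8 CPM in Blimp1-flox. Blimp1-flox 1 and 3 were the high libraries of Fdps, while Blimp1-flox 2 lay within the WT range. Its log2 fold change was 0.39 ± 0.15 (SE), which did not pass (edgeR adjusted p = 0.251), and without Blimp1-flox 1 it was 0.26. The thiolase gene Acat2 ran from 15.5 to 22.8 CPM, the mevalonate kinase gene Mvk from 7.54 to 13.8, Pmvk, the next kinase, from 15.4 to 27.9, and the decarboxylase gene Mvd from 8.74 to 18.1. Their log2 fold changes were 0.14, 0.14, 0.07 and -0.19. Idi1 had 0.912 CPM in Blimp1-flox 1, 1.79 in Blimp1-flox 2, 4.14 in Blimp1-flox 3 and 2.64 in Blimp1-flox 4, against 2.54 to 3.37 CPM in WT, a log2 fold change of -0.33 ± 0.39 (SE). Leaving out Blimp1-flox 3 gave -0.735 for Idi1, leaving out Blimp1-flox 2 gave -0.21, and leaving out Blimp1-flox 1 gave -0.07.

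No enzyme of the squalene and sterol steps was called. Sqle, the squalene epoxidase, held 23.2, 22.3, 22.5 and 29.1 CPM in WT, against 21.5, 13.4, 34.2 and 17.2 CPM in Blimp1-flox. Its lowest and its highest library were both Blimp1-flox, and the log2 fold change was -0.17 ± 0.24 (SE; edgeR adjusted p = 0.760). Leaving out 1 library moved that of Sqle from -0.49 without Blimp1-flox 3 (edgeR adjusted p = 0.215) to -0.0013 without Blimp1-flox 2, with -0.07 without WT 4 and -0.075 without Blimp1-flox 4. Cyp51, the lanosterol demethylase, lay between 49.7 and 55.5 CPM in WT, and at 43.9, 53.1, 73.0 and 51.1 CPM in Blimp1-flox. Blimp1-flox 3 was the high library of Cyp51, whose log2 fold change was 0.04 over all libraries and -0.12 without Blimp1-flox 3. Msmo1, the methyl sterol oxidase, held 37.9 to 46.2 CPM in WT, against 39.8 to 58.9 CPM in Blimp1-flox. Nsdhl, which acts on the same demethylation step, had a log2 fold change of 4.2e-04, with 27.7 to 39.9 CPM in WT, against 28.6 to 41.1 CPM in Blimp1-flox. Dhcr7, the last enzyme of one route to cholesterol, held 65.6, 55.3, 62.8 and 51.3 CPM in WT, against 68.4, 63.4, 61.4 and 81.1 CPM in Blimp1-flox, with 0.22 ± 0.12 (SE) as its log2 fold change (edgeR adjusted p = 0.368). Hsd17b7, the ketosteroid reductase of the demethylation complex, held 3.06 to 5.25 CPM in WT, against 4.32 to 8.34 CPM in Blimp1-flox. Log2 fold changes of the cyclase gene Lss, of Sc5d and of the squalene synthase gene Fdft1 were 0.16, 0.10 and 0.07. Exons of Fdft1 share 773 bases, 20.9% of its exon length, with the antisense gene Ctsb, which held 1405 CPM on average, so the counts of Fdft1 are uncertain. Lss and Srebf1 share 6.02% and 2.49% of their exon bases with antisense genes.

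Blimp1-flox 3 was the highest of 8 libraries for 10 of the 16 sterol genes, namely Hmgcs1, Mvk, Idi1, Sqle, Lss, Cyp51, Msmo1, Nsdhl, Hsd17b7 and Sc5d. Over the whole set it was the highest for 16 of 31 genes, or 51.6%, where it was the highest for 13.8% of all tested genes. The summed CPM of the 16 enzymes was 446, 445, 460 and 485 in WT and 499, 431, 579 and 486 in Blimp1-flox. Blimp1-flox 2 and Blimp1-flox 3, of the same genotype, thus stood at the lowest and the highest sum of all libraries. WT 4 was the lowest library for 11 members, 35.5% against 19.8% of all tested genes, among them Fasn, Scd2, Acly, Insig1 and Abcg1.

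**Figure D3:**
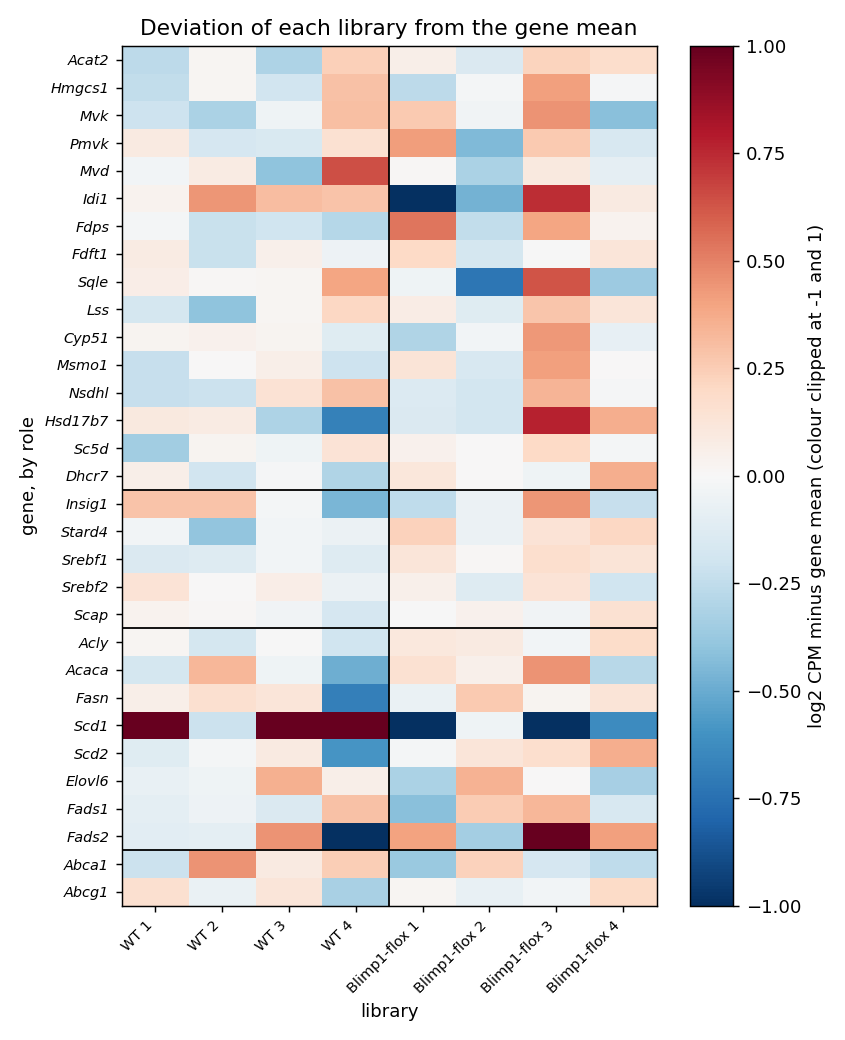
Log2 CPM of each gene minus its mean over the 8 libraries (colour, clipped at -1 and 1), with libraries in columns and genes in rows grouped by role. The column of Blimp1-flox 3 is red for most sterol enzymes, and the column of WT 4 is blue for Fasn, Scd2, Insig1 and Fads2.

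Promoters of the sterol enzymes that were high together in Blimp1-flox 3 are shown for 4 genes, with upstream bases only. The 4 genes and the stretches printed were picked by hand. Windows reached from 250 bases before to 50 bases after each RefSeq start in GRCm38.p6 and were present for 23 of the 31 genes. Capitals mark the classical sterol regulatory element, searched as TCACNCCAC, and the CCAAT box of the factor NF-Y, searched as CCAAT, both on either strand. NF-Y is a known partner of SREBP proteins at sterol gene promoters.
Hmgcs1, chr13:119690161-119690230, plus strand: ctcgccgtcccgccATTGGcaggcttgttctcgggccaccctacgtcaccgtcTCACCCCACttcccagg
Cyp51, chr5:4104698-4104757, minus strand: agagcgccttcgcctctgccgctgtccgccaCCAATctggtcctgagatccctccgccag
Msmo1, chr8:64733629-64733688, minus strand: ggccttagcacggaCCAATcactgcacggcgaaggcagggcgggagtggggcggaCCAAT
Idi1, chr13:8885546-8885605, plus strand: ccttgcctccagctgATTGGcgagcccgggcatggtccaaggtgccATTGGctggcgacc
The Hmgcs1 stretch holds 1 sterol regulatory element and 1 CCAAT box that do not overlap, Cyp51 holds 1 CCAAT box, and Msmo1 and Idi1 hold 2 each. CCAAT was found in 17 of 23 member promoters, 73.9%, and in 12 of the 13 sterol enzyme promoters, where 41.1% of 27025 genes had it. Pmvk, Mvd and Dhcr7, whose highest library was not Blimp1-flox 3, had it too. Whether these letters bear on the levels in Blimp1-flox 3 was not tested. TCACNCCAC was found in Hmgcs1 alone of the members and in 1.44% of all genes. A search for AGNGAAAG, the core letters of Blimp1 sites, found it in 1 member promoter, Fads2, and in 9.91% of all genes. The liver X receptor element DR4 was in none of the 23, and in 0.0148% of all genes. These are matches of letters in a short window and not measured binding.

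Of the regulators, Srebf1 was the 1 gene whose groups did not overlap. Srebf1 held 138, 139.9, 150.5 and 139.8 CPM in WT, against 166, 154, 172 and 167 CPM in Blimp1-flox. Every Blimp1-flox library lay above every WT library, with a fold of 1.16 and a 95% interval from 1.03 to 1.31, or 0.21 ± 0.08 (SE) on the log2 scale (edgeR adjusted p = 0.231). The sign was kept in all 19 alternatives run, at log2 values from 0.185 to 0.241, and none passed (adjusted p from 0.111 to 0.990). Of these alternatives, the adjusted p under 0.1 changed only the threshold and repeats the values of the main fit. The mean of Srebf2 was lower by less than its spread, with 224, 205, 214 and 196 CPM in WT, against 212, 187, 224 and 178 CPM in Blimp1-flox (log2 fold change -0.07 ± 0.10, SE; edgeR adjusted p = 0.760). Per kilobase, the ratio of Srebf2 to Srebf1 was 1.52, 1.38, 1.34 and 1.32 in WT and 1.199, 1.138, 1.229 and 1.002 in Blimp1-flox. The 2 groups of ratios did not overlap. This ratio was chosen after the values were seen and has no test here. Counts do not separate the SREBP1a and SREBP1c forms that Srebf1 encodes.

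**Figure D4:**
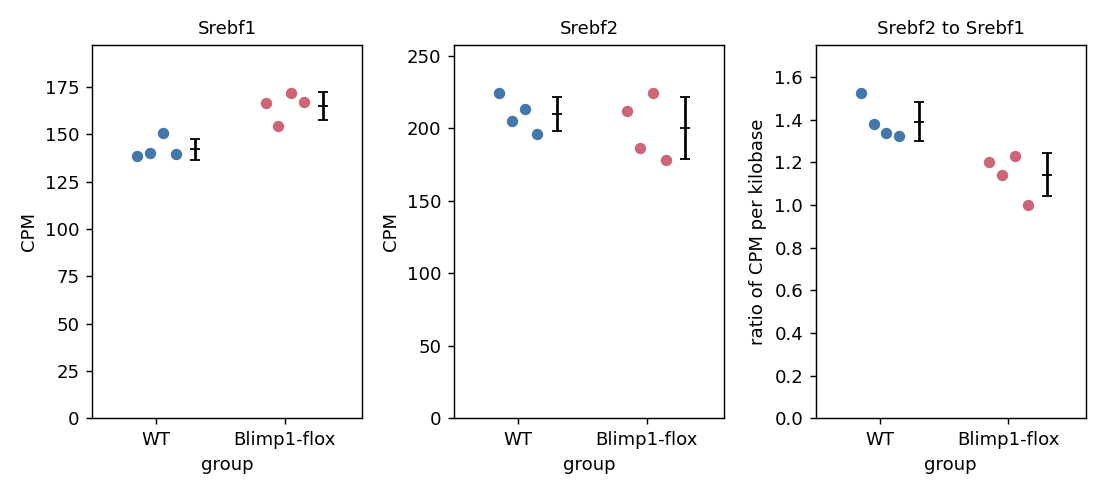
CPM of Srebf1, CPM of Srebf2 and the ratio of Srebf2 to Srebf1 per kilobase of exon in each library (points), with the group mean and SD (bars, n = 4), all axes from 0. The Srebf1 points of Blimp1-flox, 154 to 172 CPM, lie above those of WT, 138 to 150.5 CPM, and the ratios lie below.

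Scap, whose product escorts both precursors, held 109 to 125 CPM in WT, against 119 to 136 CPM in Blimp1-flox, with a 95% interval of the fold from 0.928 to 1.204. Insig1, both a sensor and a target of SREBP, held 57.8, 57.7, 46.7 and 34.5 CPM in WT, against 39.7, 45.5, 64.5 and 40.4 CPM in Blimp1-flox. Its spread within each group, at a coefficient of variation of 22.6% and 24.4%, was far wider than that of Srebf1 at 3.93% and 4.46%. The sterol carrier gene Stard4 held 17.9, 13.9, 17.9 and 17.5 CPM in WT, against 21.4, 17.5, 20.0 and 21.0 CPM in Blimp1-flox. Blimp1-flox 2 alone of its group lay within the WT range of Stard4, and the log2 fold change was 0.25 ± 0.14 (SE; edgeR adjusted p = 0.395).

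Of the fatty acid synthesis genes, 0 of 8 were called, with 6 positive and 2 negative log2 fold changes. Acly held 504, 440.0, 494 and 433 CPM in WT, against 534, 527, 487 and 564 CPM in Blimp1-flox, with 0.18 ± 0.09 (SE) as its log2 fold change (edgeR adjusted p = 0.356). Fasn, the fatty acid synthase, held 171, 183, 178 and 102 CPM in WT, against 157, 197, 167 and 179 CPM in Blimp1-flox. WT 4 alone was low for Fasn, and without it the log2 fold change went from 0.14 to -0.02. Acaca held 5.22 to 9.25 CPM in WT, against 6.05 to 9.998 CPM in Blimp1-flox. The elongase gene Elovl6 had 8.86 to 14.2 CPM over all libraries and a log2 fold change of -0.13. The desaturase gene Fads1 held 23.9 to 32.4 CPM in WT, against 19.8 to 33.2 CPM in Blimp1-flox (log2 fold change 0.03), and its neighbour Fads2 held 0.224 to 1.01 and 0.582 to 1.47 CPM. The sum of the 8 genes was 863, 825, 893 and 711 CPM in WT, against 884, 950, 886 and 985 CPM in Blimp1-flox.

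The stearoyl-CoA desaturase genes Scd1 and Scd2, which place the first double bond in saturated fatty acids, lie on chromosome 19 of mm10, Scd2 from 44293676 to 44306862 and Scd1 from 44394450 to 44407709. Per kilobase, Scd2 stood above Scd1 in 8 of 8 libraries, by a ratio from 4.28 in WT 4 to 4348 in Blimp1-flox 3. Scd2 held 144, 155, 167 and 104 CPM in WT, against 155, 171, 176 and 202 CPM in Blimp1-flox. WT 4 was the low library of Scd2, and the groups overlapped (log2 fold change 0.30 ± 0.14, SE; edgeR adjusted p = 0.295). Without WT 4 the log2 fold change of Scd2 was 0.18. Scd1 held 2.70, 0.734, 6.58 and 21.6 CPM in WT, against 0.0608, 0.832, 0.036 and 0.554 CPM in Blimp1-flox, from 67, 17, 150 and 579 counts and 1, 20, 1 and 13 counts. The Scd1 groups overlapped, since WT 2 lay below Blimp1-flox 2, and WT 4 alone gave 579 of 813 WT counts.

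Scd1 had a log2 fold change of -4.37 ± 1.21 (SE), the largest in size among the members (edgeR adjusted p = 0.171). DESeq2 put it at -4.41 with an adjusted p of 0.0159, limma-voom with quality weights at -3.34 with 0.172, and over 18 alternatives the adjusted p ran from 0.0159 to 0.990. Without WT 4 the edgeR value was -3.13 (adjusted p = 0.161). In WT the order of Scd1 was that of Cd79a, which held 11.1, 8.73, 28.1 and 122 CPM, and in Blimp1-flox Cd79a held 3.47, 4.28, 4.57 and 2.51 CPM. The B cell list summed to 263, 311, 409 and 965 CPM in WT, against 218, 285, 294 and 243 CPM in Blimp1-flox, with 16 of its 17 genes highest in WT 4. Of its 16 tested genes, 10 were lower in Blimp1-flox without overlap, against 4.72% of all tested genes, with a median log2 fold change of -3.50, and 0 were called. Without WT 4 the difference between the group means of the list sum went from -227 to -67.7 CPM. Cd22 and Cd79b were its most abundant genes, and the sum includes 167 to 240 CPM of Cd22 in every library. Cd79a is named after its values were seen. Adding a score of B cell genes to the fit took Scd1 to a log2 fold change of -0.71. Genotype and that score had 65.2% of the score's variance in common, and B cell RNA and genotype cannot be told apart for Scd1 in these libraries. In such sorted bulk samples fewer cells of a type and less RNA per cell cannot be told apart either. Of the 8 adipocyte markers, Cidec, Lep, Cfd, Adrb3 and Car3 were at 0 in every library and the sum of the list was at most 2.45 CPM. Scd1 and Scd2 transcripts shared no stretch of 75 bases at 98% identity with any other gene.

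**Figure D5:**
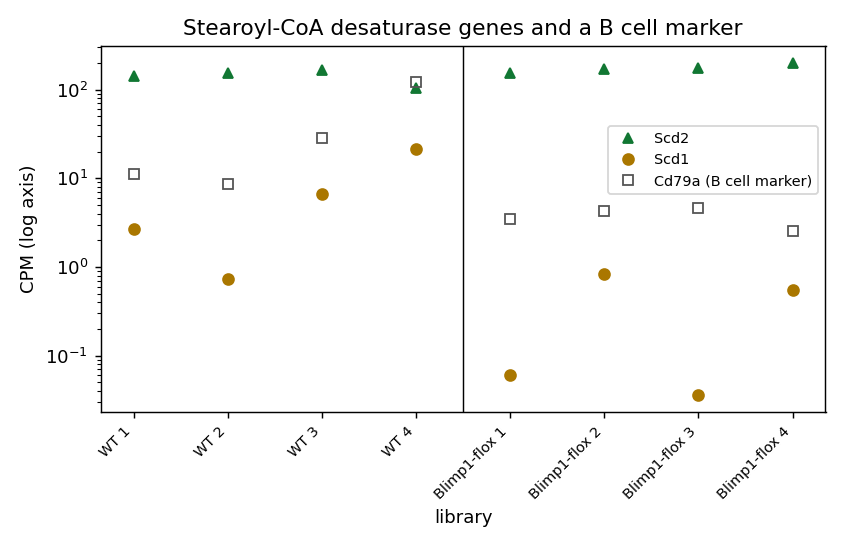
CPM (log axis) of Scd2, Scd1 and the B cell receptor gene Cd79a in each library. Scd2 stays between 104 and 202 CPM, while Scd1 goes from 21.6 CPM in WT 4 to 0.036 CPM in Blimp1-flox 3, and Cd79a is highest in WT 4 at 122 CPM.

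The efflux pumps, targets of the liver X receptors, did not pass either. Abcg1 held 105, 90.0, 102 and 75.4 CPM in WT, against 95.7, 89.6, 92.3 and 108 CPM in Blimp1-flox, with a 95% interval of the fold from 0.869 to 1.23. Abca1 held 8.07, 12.8, 9.97 and 11.1 CPM in WT, against 7.24, 10.98, 8.34 and 7.84 CPM in Blimp1-flox. Blimp1-flox 2 was the high library of its group for Abca1, and the log2 fold change was -0.28 ± 0.20 (SE; edgeR adjusted p = 0.503). Per kilobase Abcg1 stood at 16.3 and Abca1 at 0.930 CPM, with Abcg1 the higher of the pair.

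The neighbouring pathways gave the same count. No tested gene of 9 further lists was called in either direction, where 0.501% of all tested genes were. These lists held other sterol enzymes (6 tested, median log2 fold change 0.11), the isoprenoid branch (14, 0.08), SREBP processing (12, 0.01), sterol uptake, transport and esterification (22, 0.03), and liver X receptor factors and targets (11, -0.02). They also held other fatty acid synthesis and elongation genes (21, 0.07), fatty acid oxidation (20, 0.15), lipid uptake and droplets (15, 0.08), and mTORC1 and AMPK control (15, -0.03). The smallest adjusted p of the 9 lists was 0.0900, for Pik3ip1, an inhibitor of PI3 kinase signalling, which is named here after its value was seen. Among fatty acid oxidation genes 5 of 20 had no overlap between groups, all higher in Blimp1-flox, against 3.75% of all tested genes that were higher without overlap. This list is singled out after its values were seen, and its smallest edgeR adjusted p was 0.197. Each of the other lists had at most 1 gene higher and at most 1 gene lower without overlap.

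Markers of other cell types were present at low levels beside the T cell genes. The sums of the 9 cell lists were tested by exact permutation, two-sided, over 70 assignments, which can give no p below 0.0286, and the B cell sum had p = 0.114 (adjusted p = 0.206). Pancreatic acinar genes summed to 34.1 to 69.5 CPM in WT, against 52.4 to 107 CPM in Blimp1-flox (exact p = 0.0571, adjusted p = 0.193), with Cela1 the highest gene of the list. That sum includes 27.5 to 34.3 CPM of Cela1 in WT and 39.7 to 67.3 CPM in Blimp1-flox. Cela2a and Pnlip were at 0 in WT 1, WT 3 and Blimp1-flox 4, where Cela1 was not, so the sum is no plain measure of acinar RNA. The 13 tested acinar genes all had positive log2 fold changes, at a median SE of 1.41, where 50.1% of all tested genes were positive. Several of these 13 genes were high or near 0 in the same libraries of both groups, so their signs are not independent. Sums of the erythroid and platelet, CD8 T and NK, and adipocyte lists had exact p of 0.0571, 0.0857 and 0.0857, with an adjusted p of 0.193 for each. The macrophage, monocyte and dendritic list had an exact p of 0.200 and ran from 103 to 148 CPM in WT, against 105 to 215 CPM in Blimp1-flox. Of its 17 tested genes 16 were positive, where 50.1% of all tested genes were, at a median SE of 0.560, and 0 were called. Lyz2, S100a8 and S100a9 were all highest in Blimp1-flox 1 and Blimp1-flox 4, so the signs of this list are not independent either. The plasma cell, T cell, and stroma and endothelium lists had exact p of 0.657, 0.743 and 0.943. The most abundant genes of these lists were Xbp1 and Jchain for plasma cells, Hmox1 and Cd68 for macrophages, Klrb1c and Cd8b1 for CD8 T and NK cells, Alas2 and Itga2b for erythroid cells and platelets, Pecam1 and Col1a1 for stroma, Cela1 and Prss2 for acinar cells, and Adipoq and Retn for adipocytes. The haemoglobin genes Hba-a1, Hbb-bs and Hbb-bt, the macrophage gene Clec4f, the stromal gene Ccl21a and the acinar gene Amy2a5 were at 0 in all libraries. Whether reads could be assigned to these genes was not checked, so their 0 counts do not show that the RNA was absent. Lipid genes whose sign changed with the B cell score in the fit are given with the processing alternatives, and the part of the other cell types in them was not tested.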

How the data were processed

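The deposited table holds raw counts per gene, made by the authors with STAR 2.5.2b and featureCounts of Subread 1.5.1 on mm10, per the submitters' processing notes. The sources used here give no annotation release and no strand setting. Genes were filtered with filterByExpr, scaled by TMM and tested with edgeR 4.0.16 (robust quasi-likelihood F test, genotype as the only term, Benjamini-Hochberg adjusted p under 0.05 over all tested genes, R 4.3.3). Intervals are 95% intervals from that fit. Libraries held 16425538 to 27595939 counts, and no pair of libraries was identical. Alternatives were DESeq2 1.42.0, limma 3.58.1 voom with quality weights, other scalings and filters, a replicate block and leaving out each library. After seeing the data, leaving out WT 4 with Blimp1-flox 3 and a B cell score covariate were added. All members and Prdm1 were named, with the 2 highest genes of each cell list. Foxp3, Cxcr5, Pdcd1, Il2ra, Cd79a and Pik3ip1 were named outside that rule, and genes at 0 or overlapping a member are named as such. The members and lists were chosen with earlier results of these data known. Code was tested on simulated data.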

Additional observations from a re-analysis of the deposited data

Results flagged for a closer look

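Of 80 groups of 4 libraries checked, 5 held a library far from the other 3 by Dixon's criterion, where chance gives about 1 in 20. Sqle was highest in WT 4 at 29.1 CPM, against 22.3 to 23.2 CPM in the other WT libraries. Cyp51 was lowest in WT 4 at 49.7 CPM, against 54.9 to 55.5 CPM. Fasn was lowest in WT 4 at 102 CPM, against 171 to 183 CPM. Stard4 was lowest in WT 2 at 13.9 CPM, against 17.5 to 17.9 CPM. Srebf1 was highest in WT 3 at 150 CPM, against 138 to 140 CPM, and still below every Blimp1-flox library. WT 4 is the library with the most B cell RNA, and whether that bears on its flagged values was not tested. With a B cell score in the fit the log2 fold change between genotypes was -0.325 for Fasn, -0.122 for Cyp51, -0.0558 for Sqle and 0.188 for Srebf1. That score had 65.2% of its variance in common with genotype, and these values do not show why WT 4 differs from the other WT libraries.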

How the results depend on the processing

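No member was called in any setting but DESeq2, which called 1, Scd1 (log2 -4.41), beside 3.66% of all tested genes. Genes called, 62 as reported, were 453 with DESeq2, 494 with limma-voom, 182 at an adjusted p under 0.1, 157 without WT 4 and Blimp1-flox 3, and 0 with the B cell score as a covariate (562 at an unadjusted p under 0.05). Leaving out 1 library gave 20 to 127, with 20 without Blimp1-flox 1, 23 without Blimp1-flox 4, 27 without WT 2, 94 without Blimp1-flox 3 and 127 without WT 1. A replicate block gave 52 called genes and 0 members, and changed no member's call. Same-numbered libraries had correlations of 0.1, 0.153, -0.102 and -0.108, so the numbers are not taken as pairs. The causes were not tested. Of 587 member values 41 changed sign, in 17 of 31 members. Those 587 include the 31 values at an adjusted p under 0.1, which repeat the main fit and could not change sign. With limma-voom the reversed log2 values were Mvk -0.0836, Pmvk -0.0272, Mvd 0.00072, Cyp51 -0.0562, Nsdhl -0.0288 and Acaca -0.0524. Without WT 4 and Blimp1-flox 3 they were Cyp51 -0.16, Nsdhl -0.021, Acaca -0.0708 and Abcg1 -0.0233. With the B cell score they were Mvd 0.214, Cyp51 -0.122, Hsd17b7 -0.346, Dhcr7 -0.0244, Scap -0.0787, Acaca -0.188, Fasn -0.325, Scd2 -0.118, Elovl6 0.138, Fads2 -0.608 and Abcg1 -0.274. Leaving out 1 library, log2 values ran from -0.0731 to 0.189 for Hmgcs1, -0.0731 to 0.198 for Pmvk, -0.337 to 0.0327 for Mvd, -0.122 to 0.135 for Cyp51, -0.126 to 0.107 for Nsdhl, -0.231 to 0.0397 for Insig1, -0.0184 to 0.221 for Fasn, -0.0873 to 0.146 for Fads1 and -0.0429 to 0.109 for Abcg1. The difference in summed CPM ran from -8.99 to 8.27 for stroma, -107 to 555 for T cell genes and -2.7 to 34.2 for plasma cells. Leaving out 1 library kept the sign of the other members but moved several over 1.5 times, as for Sqle (-0.488 to -0.00133), Idi1 (-0.735 to -0.0699), Mvk (0.00328 to 0.284), Fdft1 (0.00964 to 0.131), Sc5d (0.0145 to 0.172), Acaca (0.0502 to 0.343), Srebf2 (-0.126 to -0.0144) and Elovl6 (-0.29 to -0.0286). The median of the members ran from 0.0543 to 0.135. The stricter filter dropped Scd1 and Fads2, so it gives no value for them.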
